A study of Homo sapiens with 6 samples.

Results

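The genes described are the subunits of the glutamate and GABA receptors together with 4 families of synaptic proteins, measured in LN229 cells with and without PARP3. They were chosen by symbol alone, as the protein-coding genes of the AMPA (GRIA), kainate (GRIK), NMDA (GRIN) and metabotropic (GRM) glutamate receptors, the GABA receptor subunits (GABR), the synaptotagmins (SYT), the neuroligins (NLGN), the neurexins (NRXN) and the DLGAP scaffold proteins. Of 33841 genes listed with at least 1 count, 60 were chosen by the rule on symbols, and the 54 of them that are described here are the ones counted below. LN229 is an adherent human glioblastoma line, and both genotypes were grown proliferating, in the same serum-containing medium. The WT cells are labelled PARP3+/+. The PARP3-/- cells were derived from them by CRISPR/Cas9, with a disruption that the series text places from exon 2 to exon 9 and the methods, by their guide RNAs, at exons 2 and 5. In the study's sequencing of its LN229 knockout clones, both alleles carry a deletion that ends within an exon 5 guide site. Colonies were picked singly after editing, and the sources used here do not name the clone whose RNA was sequenced, so a difference that belongs to the genotype and one that belongs to the clone cannot be told apart. Each genotype had 3 biological replicates, and each replicate was 1 library of total RNA depleted of ribosomal RNA.

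The 6 libraries held between 29692065 and 46010369 counts on genes. Levels are given as CPM (counts scaled to library size) after TMM normalization, a correction for library composition, and 3 counts, taken as the floor, correspond to 0.0673 to 0.0996 CPM. The 17144 genes with enough counts were tested with edgeR's quasi-likelihood test, and the adjusted p (Benjamini-Hochberg, over all genes tested) had to be under 0.05. PARP3 itself was counted 1273, 942 and 995 times in WT and 574, 1004 and 736 times in PARP3-/-, so the genotypes overlapped at the edited gene. Its log2 fold change of PARP3-/- over WT was −0.42 (SE 0.18, adjusted p = 0.307 by edgeR), −0.39 with the replicate number as a block (adjusted p = 0.0469 by edgeR) and −0.15 without both replicate 1 libraries (adjusted p = 0.278 by edgeR). According to the study, loss of PARP3 in its knockout clones was checked by western blot and by sequencing. Gene counts do not measure the protein. Replicate 1 stood apart from replicates 2 and 3 in both genotypes, with a chi-square per degree of freedom of 48.7 to 93.7 in the pairs that contain it, against 10.9 and 3.8 between replicates 2 and 3 of WT and of PARP3-/-. Deviations from the group mean correlated between libraries with the same number (0.676, 0.517 and 0.242), most clearly for replicate 1. WT replicate 2 also correlated with PARP3-/- replicate 3 (0.41), and WT replicate 3 with PARP3-/- replicate 2 (0.264). The numbers thus pair replicates 2 and 3 less clearly than replicate 1. Results are therefore given without the block, with it, and without both replicate 1 libraries, wherever these differ in the call.

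Glutamate is the main excitatory transmitter of the brain and GABA the main inhibitory one. AMPA, kainate and NMDA receptors are cation channels opened by glutamate, the metabotropic receptors signal through G proteins, and GABA-A receptors are chloride channels assembled from several kinds of subunit, typically alpha and beta subunits with a gamma, delta or epsilon subunit. Synaptotagmins are membrane proteins of vesicles, several of which sense calcium, while neurexins and neuroligins bind each other across the synaptic cleft and DLGAP proteins link receptors to the postsynaptic scaffold. Glioma cells can carry such receptors, and glioblastoma cells have been described that receive synaptic input from neurons through AMPA receptors.

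LN229 cells transcribed a limited subset of these families. Of the 54 genes, 23 passed the count filter, namely 7 of 14 synaptotagmins, 5 of 12 GABA receptor subunits, 3 of 4 neuroligins, 1 of 2 neurexins, 2 of 4 DLGAP genes, 2 of 6 NMDA receptor subunits, and 1 each of 3 AMPA, 5 kainate and 4 metabotropic receptor genes. The other 31 had low counts throughout. Of these, 16 had at most 3 counts in every library, 28 had at most 10, and the highest count of any was 19. Summed over the genes described of each family, the synaptotagmins (191 CPM in WT, 201 in PARP3-/-) and the DLGAP genes (186 and 182) had the highest levels, followed by the neuroligins (76.2 and 72.8), the GABA receptor subunits (26.0 and 23.0), the metabotropic receptors (22.4 and 13.2), the kainate receptors (15.8 and 14.8) and the neurexins (13.9 and 10.7). The NMDA (2.14 and 1.48) and AMPA (1.99 and 0.741) receptor genes were the lowest. The DLGAP sum came mostly from DLGAP5, which codes for a protein of the mitotic spindle rather than of the synapse.

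**Figure D1:**
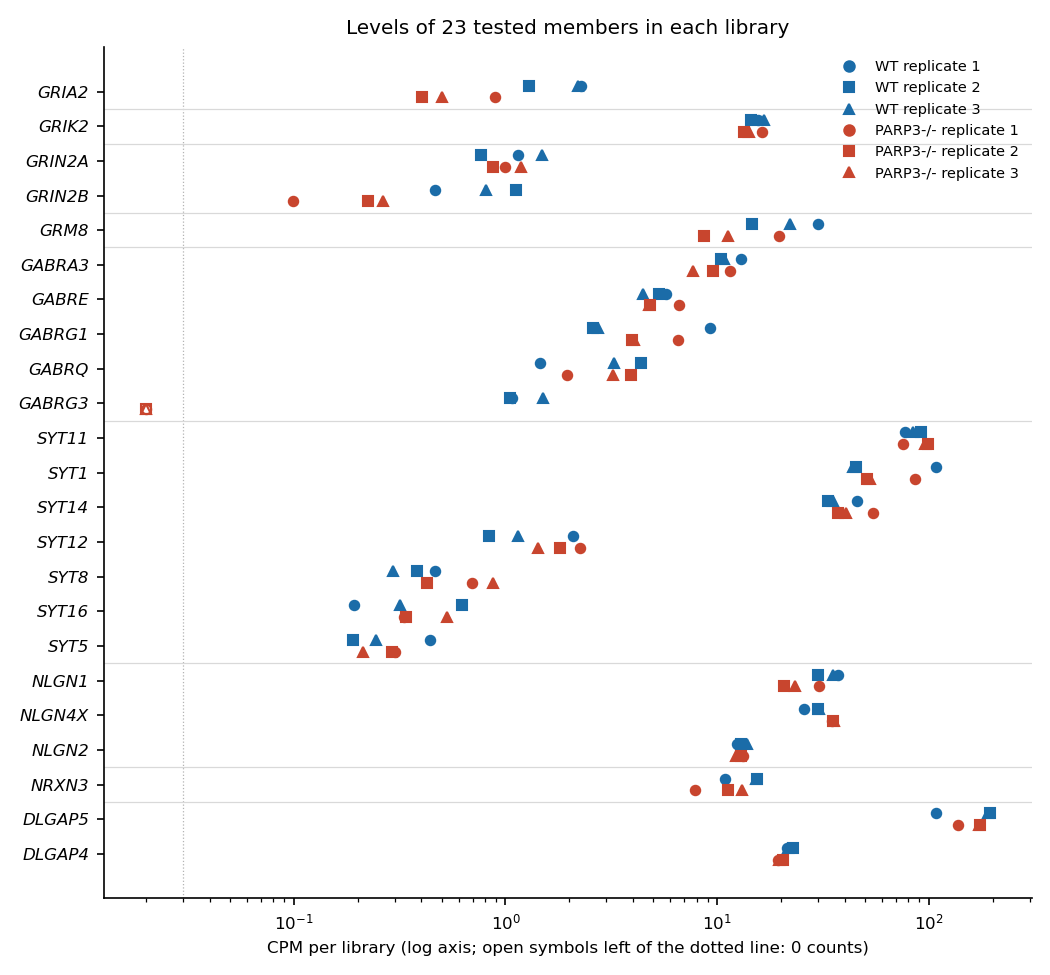
CPM of the 23 genes described that passed the count filter in each of the 6 libraries, on a log axis, with WT and PARP3-/- libraries drawn as separate symbols and libraries with 0 counts drawn open, left of the dotted line. Levels above 0 span from 0.0996 to 194 CPM, and GABRG3 is the gene with all 3 PARP3-/- libraries at 0.

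Per kilobase of merged exon, which allows genes to be set side by side, the leading gene of each family in WT was DLGAP5 at 45.6 CPM per kb, SYT11 at 16.3, NLGN4X at 3.85, GRM8 at 3.49, GABRA3 at 2.73, NRXN3 at 0.896, GRIK2 at 0.582, GRIA2 at 0.135 and GRIN2A at 0.0607. Each of them also led its family in PARP3-/-. The leaders of 3 families depended on the length used. With the authors' median transcript length, SYT1 (91.6 CPM per kb) led the synaptotagmins, NLGN1 (44.2) the neuroligins and GRIN2B (5.73) the NMDA receptor genes. The last of these rested on a median length of 139 bases, against 31.1 kb of merged exons.

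Between the genotypes, 2 of the 23 genes passed the test. The GABA-A receptor gamma subunit gene GABRG3 and the AMPA receptor subunit gene GRIA2 were lower in PARP3-/-, which is 8.7% of the members tested, against 3.33% of all tested genes. By edgeR, 0 of the 23 were called higher, against 1.36% of all tested genes, and 1 of them, NLGN4X, was higher at an unadjusted p under 0.05. DESeq2 also called 0 of them higher. Counts this small are read only as the values of these genes. In bulk RNA, fewer cells that express a gene and less of its RNA per cell cannot be told apart. The median log2 fold change of the 23 genes was −0.06, and that of all 17144 tested genes −0.01. The 3 PARP3-/- libraries lay below all WT libraries for 4 of the 23 (17.4%), DLGAP4, GABRG3, GRIA2 and GRIN2B, against 12.0% of all tested genes, and above them for NLGN4X (4.35%), against 10.8%.

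With the replicate number as a block, 6 members were called lower (26.1%, against 12.5% of all tested genes) and 2 higher (8.7%, against 11.8%). The lower ones were GABRG3, GRIA2, GRIN2B, GRM8, NLGN1 and NRXN3, and the higher ones NLGN4X and SYT14. Without both replicate 1 libraries, the genes called lower were the same 6, of 24 tested (against 10.1% of all tested genes), while 3 were called higher (12.5%, against 8.91%), namely GABRG1, NLGN4X and SYT1. DESeq2, which gave an adjusted p to 39 of the members, called GABRG3, GRIA2, GRIN2B and SYT13 lower (10.3%, against 3.84% of all genes with an adjusted p), against 2.09% of all such genes called higher. GABRG3 and GRIA2 were called in all 4 of these fits.

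**Figure D2:**
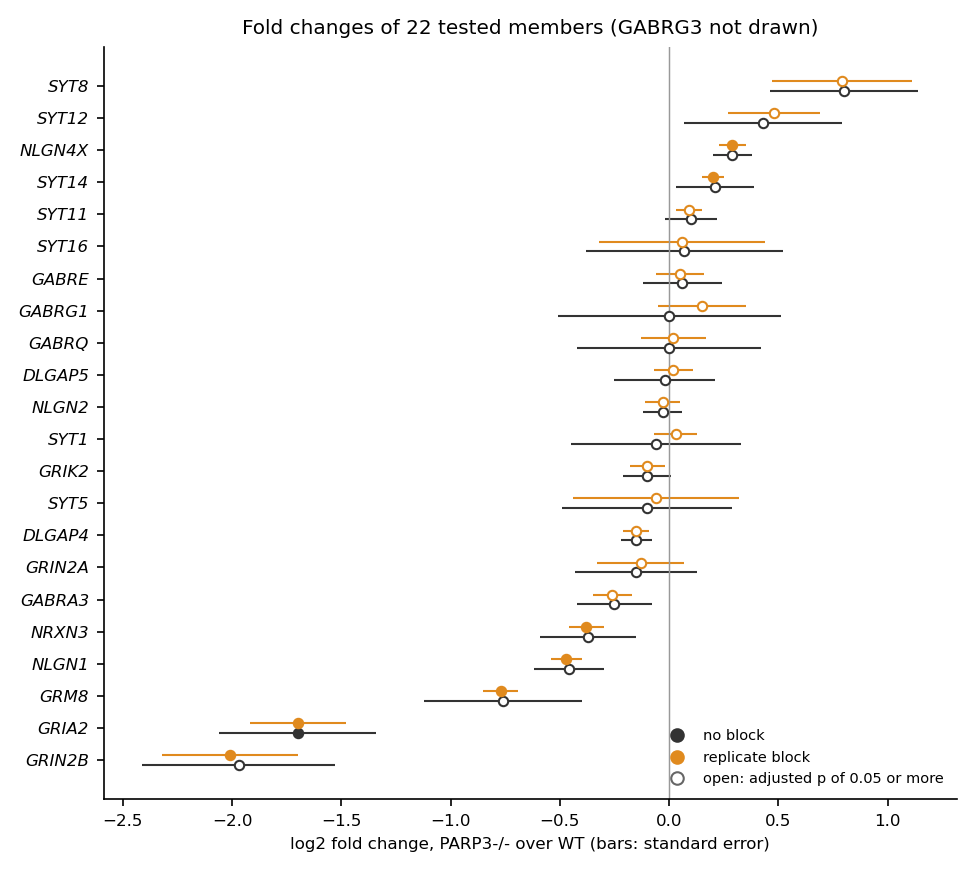
Log2 fold change of PARP3-/- over WT for 22 tested genes, from the fit without the replicate block and the fit with it. Bars are standard errors derived from the test's F statistic, and an open symbol marks an adjusted p of 0.05 or more. GRIN2B and GRIA2 lie furthest to the left, between −2.01 and −1.70 in both fits, while GABRG3 is not drawn because it had no count in PARP3-/-.

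GABRG3 (ENSG00000182256, chromosome 15, 26971282 to 27541991 of hg38, plus strand) codes for the gamma-3 subunit of the GABA-A receptor. It was counted 39, 44 and 62 times in the WT libraries and 0, 0 and 0 times in the PARP3-/- libraries. Every WT library was thus well above the floor and none of the PARP3-/- libraries had a read. The level was 1.21 ± 0.262 CPM in WT (SD, n = 3), so that PARP3-/-, set at the floor of 3 counts per library, was at least 14.7-fold lower (adjusted p = 0.00377 by edgeR). The gene passed the count filter through its WT libraries. It passed in each of the fits that left out 1 library, with adjusted p values of 0.00631 to 0.0217 by edgeR. Merged exons of the gene share 1093 bases, or 8.6%, with a long non-coding RNA gene (ENSG00000259168) on the opposite strand, and whether the authors' counting used strand is not given in the sources used here.

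The sequence before the RefSeq start of GABRG3 is shown because, of the members that passed the count filter, it is the one without a count in PARP3-/-. The window is chr15:26970931-26971180 of GRCh38.p14 on the plus strand, 250 bases that end just before the start, with the CG pairs, where DNA methylation is placed in human cells, in capitals.
GABRG3: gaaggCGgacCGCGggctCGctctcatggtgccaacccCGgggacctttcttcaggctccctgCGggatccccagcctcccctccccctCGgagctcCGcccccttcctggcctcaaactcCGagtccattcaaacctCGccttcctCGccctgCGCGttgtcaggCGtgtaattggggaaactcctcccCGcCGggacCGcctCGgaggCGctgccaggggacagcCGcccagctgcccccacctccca
It holds 20 CG pairs and is 69.6% G and C. Across all 35116 RefSeq windows of this length the median was 11 CG pairs, with quartiles of 3 and 23, and across the 69 windows of the 41 members that could be matched the median was 16, with quartiles of 6 and 24. The window is thus within the middle range of promoters. No methylation was measured here.

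Neighbours of GABRG3 within 1 Mb that are described here were OCA2, a melanosome transporter gene 213 kb away, and HERC2, a ubiquitin ligase gene 569 kb away. OCA2 was counted 38, 48 and 31 times in WT and 11, 20 and 32 times in PARP3-/-, an overlap at the third replicate (log2 fold change −0.81, SE 0.35, adjusted p = 0.312 by edgeR, 0.0932 with the block). HERC2 was at 121, 103 and 112 CPM in WT and 137, 121 and 123 CPM in PARP3-/- (log2 fold change 0.18, SE 0.09, adjusted p = 0.406 by edgeR, 0.0199 with the block).

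The gamma-1 subunit gene, GABRG1, was at 9.20, 2.60 and 2.73 CPM in WT and at 6.51, 3.97 and 4.05 CPM in PARP3-/-. Replicate 1 was the highest library in both genotypes, and the groups overlapped (adjusted p = 1.0 by edgeR). Without both replicate 1 libraries, the remaining PARP3-/- libraries were above the WT libraries (log2 fold change 0.59, adjusted p = 0.0202 by edgeR). The call for GABRG1 thus depended on the replicate 1 libraries, whereas that for GABRG3 did not.

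Among the other GABA receptor subunits, the 3 neighbouring genes on the X chromosome carried most of the counts. GABRA3, which codes for the alpha-3 subunit, was at 12.9, 10.4 and 10.8 CPM in WT and 11.5, 9.52 and 7.68 CPM in PARP3-/-. The ranges overlapped, and the log2 fold change of −0.25 (SE 0.17, adjusted p = 0.576 by edgeR) did not pass. GABRE, the epsilon subunit gene, had 5.16 ± 0.641 CPM in WT and 5.39 ± 1.05 CPM in PARP3-/- (adjusted p = 0.941 by edgeR). GABRQ, the theta subunit gene, was at 1.45, 4.38 and 3.27 CPM in WT and 1.96, 3.91 and 3.23 CPM in PARP3-/-, with replicate 1 the lowest in both genotypes (adjusted p = 0.998 by edgeR).

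The beta subunit genes GABRB1 and GABRB2 were near the floor. GABRB1 was counted 2, 6 and 4 times in WT and 3, 5 and 2 times in PARP3-/-. GABRB2 had 2, 5 and 0 counts in WT and 2, 0 and 2 counts in PARP3-/-. GABRA4, GABRA6 and GABRD had at most 1 count in any library. GABRR2, a subunit gene of the rho class, had at most 4. GABRA2 was counted 10, 5 and 4 times in WT and 1, 1 and 1 times in PARP3-/-, below the count filter, at least 1.99-fold lower against the floor of 3 counts per library.

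Many GABA-A subunit genes lie in clusters, and neighbours within a cluster differed in level. On chromosome 4, over 1.39 Mb, GABRG1 passed the filter and GABRA2, GABRA4 and GABRB1 did not. On the X chromosome, GABRE, GABRA3 and GABRQ, which span 0.704 Mb, all passed.

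**Figure D3:**
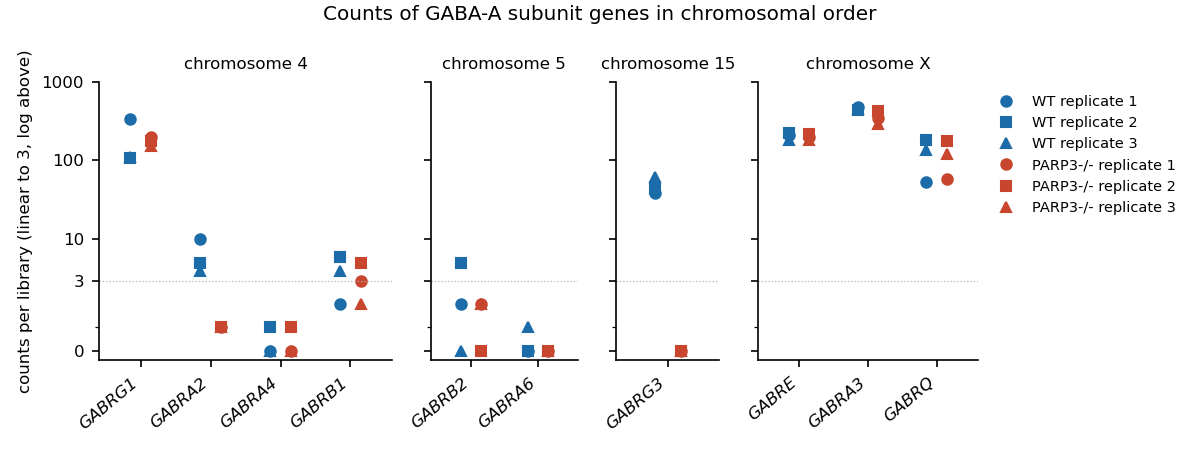
Counts per library of the GABA-A subunit genes described on chromosomes 4, 5, 15 and X, 1 panel per chromosome and in chromosomal order, on an axis that is linear up to 3 counts and logarithmic above, with the dotted line at the floor of 3 counts. GABRG1 rises above its neighbours on chromosome 4, GABRG3 is at 0 in all 3 PARP3-/- libraries, and all 3 genes on the X chromosome are above 50 counts in every library.

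GRIA2 (ENSG00000120251, chromosome 4, 157204182 to 157366075, plus strand) codes for GluA2, the AMPA receptor subunit whose edited form makes the channel impermeable to calcium. It was at 2.27, 1.29 and 2.19 CPM in WT and at 0.896, 0.404 and 0.503 CPM in PARP3-/-. Every WT library was above every PARP3-/- library, and WT replicate 2 was the closest to them. The mean fell from 1.92 ± 0.548 to 0.601 ± 0.260 CPM (SD, n = 3), a 3.26-fold difference (log2 fold change −1.70, SE 0.36, adjusted p = 0.0474 by edgeR, 0.000252 with the block). The result was close to the threshold. It was lost without WT replicate 1 (adjusted p = 0.0795 by edgeR), without WT replicate 3 (0.187), without PARP3-/- replicate 2 (0.188) and without PARP3-/- replicate 3 (0.203), with log2 fold changes from −2.08 to −1.47 over all 6 such fits. Without both replicate 1 libraries it was −1.95 (adjusted p = 0.00277 by edgeR).

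GRIA2 is the member in which both parts of the RE1 element, the sequence bound by the repressor REST at many neuronal genes, were found together at their usual spacing, and the stretch is shown for that reason. It lies at chr4:157220385-157220414 of GRCh38.p14 and reads on the minus strand, with its centre 219 bases before a RefSeq start of the gene. The other RefSeq windows of GRIA2 end at 157220119 and 157220331, so the stretch lies after those starts. The parts TTCAGCACC and GGACAGC are in capitals, with 2 bases between them.
GRIA2: cggcctTTCAGCACCgaGGACAGCgcctcg
Searched on both strands, this pair at this spacing occurred in 3 of 35116 RefSeq windows (0.00854%), and GRIA2 was the only one of 41 matched members to hold it. TTCAGCACC alone was in 0.288% of all windows and in those of GRIA2 and GRM2, and GGACAGC alone was in 4.76% and in those of GABRG3, GABRQ, GRIA2, GRM2, NLGN4X and SYT6. The letters TGACGTCA, a site for CREB factors, were in 1.65% of all windows and in no member's, and TATAAA, the core of the TATA box, was in 10.7% and in those of DLGAP1, GABRA2, GABRR2, GRM5 and SYT16. Windows with the pair are counted again under each of its parts. A match describes the sequence only, and no binding was measured in these libraries.

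The transcript of REST itself was at 75.7 ± 3.74 CPM in WT and 73.6 ± 5.74 CPM in PARP3-/- (SD, n = 3), with overlapping libraries (log2 fold change −0.04, SE 0.09, adjusted p = 0.904 by edgeR). Of 13 tested genes for REST and its corepressor proteins, 0 were called in the edgeR fit without the block, against 3.33% of all tested genes lower and 1.36% higher. DESeq2 called 1 higher, SIN3A (adjusted p = 0.0166), against 2.09% of all genes with an adjusted p. With the block 2 were called higher, SIN3A (adjusted p = 0.000383 by edgeR) and RCOR3 (0.0279), against 11.8% of all tested genes, and 0 lower, against 12.5%. Counts this small are not read as a result about REST. Without both replicate 1 libraries SIN3A passed (adjusted p = 0.00213 by edgeR) and RCOR3 did not (0.132).

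The remaining AMPA receptor genes were near the floor. GRIA3 was counted 0, 2 and 0 times in WT and 4, 5 and 0 times in PARP3-/-, and GRIA4 between 1 and 3 times in every library. Of the AMPA receptor genes described, GRIA2 was the one that passed the count filter.

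The NMDA receptor genes measured were GRIN2A and GRIN2B, which code for subunits that bind glutamate. GRIN2B (chromosome 12, 13437942 to 13981957, minus strand) was at 0.466, 1.12 and 0.805 CPM in WT and at 0.0996, 0.224 and 0.265 CPM in PARP3-/-. The groups did not overlap, and replicate 1 was the lowest library of both. Its counts were 17, 47 and 33 in WT and 3, 10 and 10 in PARP3-/-, so GRIN2B passed the count filter mainly through its WT libraries. The log2 fold change was −1.97 (SE 0.44), from 0.797 ± 0.327 to 0.196 ± 0.0861 CPM (SD, n = 3), and did not pass without the block (adjusted p = 0.0585 by edgeR). It passed with the block (−2.01, adjusted p = 0.000841 by edgeR), with DESeq2 (adjusted p = 0.00961), without WT replicate 1 (−2.23, adjusted p = 0.024 by edgeR) and without both replicate 1 libraries (−1.98, adjusted p = 0.00303 by edgeR). The other 5 fits that left out 1 library did not pass, with adjusted p values of 0.119 to 0.204 by edgeR.

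GRIN2A gave no such difference. It was at 1.15, 0.763 and 1.49 CPM in WT and at 0.996, 0.875 and 1.19 CPM in PARP3-/-, all PARP3-/- libraries lying within the WT range (log2 fold change −0.15, SE 0.28, adjusted p = 0.888 by edgeR). GRIN1, whose product GluN1 is required in every NMDA receptor, was counted 2, 1 and 0 times in WT and not at all in PARP3-/-. GRIN2C, GRIN2D and GRIN3B had at most 12 counts in any library.

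GRM8, the gene of a metabotropic receptor that lowers cyclic AMP and sits on presynaptic endings in neurons, had the highest level per kilobase of the glutamate receptor genes. It was at 29.9, 14.6 and 22.0 CPM in WT and at 19.5, 8.71 and 11.2 CPM in PARP3-/- (chromosome 7, 126438598 to 127253294, minus strand). The groups overlapped because replicate 1 was high and replicate 2 low in both, while every PARP3-/- library was below the WT library of its own number. Without the block, the spread of 22.2 ± 7.67 against 13.1 ± 5.65 CPM (SD, n = 3) left a log2 fold change of −0.76 (SE 0.36) that did not pass (adjusted p = 0.362 by edgeR, 0.275 by DESeq2). With the block the same difference, −0.77, had a standard error of 0.08 (adjusted p = 6.09e-05 by edgeR), and without both replicate 1 libraries it was −0.88 (adjusted p = 0.00801 by edgeR).

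The other metabotropic receptor genes were low. GRM7 was counted 7, 11 and 0 times in WT and 1, 0 and 0 times in PARP3-/-, which overlap at 0. GRM2 had at most 7 counts in any library and GRM5 at most 1. Of the kainate receptor genes, GRIK2 was at 15.6, 14.5 and 16.7 CPM in WT and at 16.2, 13.4 and 14.1 CPM in PARP3-/-, with overlapping libraries and a log2 fold change of −0.10 (SE 0.11, adjusted p = 0.778 by edgeR). GRIK1 and GRIK5 had at most 6 counts in any library, and GRIK3 and GRIK4 at most 1.

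None of the 7 tested synaptotagmin genes passed without the block. SYT11, which codes for a synaptotagmin without calcium binding that acts in vesicle and membrane traffic, was at 77.5, 91.4 and 83.9 CPM in WT and at 75.4, 98.8 and 96.1 CPM in PARP3-/- (log2 fold change 0.10, SE 0.12, adjusted p = 0.810 by edgeR). Its libraries overlapped. SYT14 was at 45.7, 33.3 and 35.4 CPM in WT and at 54.2, 37.4 and 40.6 CPM in PARP3-/-, each PARP3-/- library above the WT library of its number although the groups overlapped. Its log2 fold change of 0.21 (SE 0.18, adjusted p = 0.675 by edgeR) passed with the block, at 0.20 (SE 0.05, adjusted p = 0.0162 by edgeR), and did not pass without both replicate 1 libraries (adjusted p = 0.108 by edgeR).

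SYT1, the calcium sensor of fast transmitter release, varied more between replicates than between genotypes. It was at 108, 45.5 and 43.6 CPM in WT and at 85.8, 51.2 and 52.6 CPM in PARP3-/-. Replicate 1 was the highest library of both groups, so the groups overlapped (adjusted p = 0.977 by edgeR), and without both replicate 1 libraries the log2 fold change was 0.22 (adjusted p = 0.0244 by edgeR). SYT12, SYT8, SYT16 and SYT5 were between 0.191 and 2.26 CPM in all libraries and passed in none of the 4 fits.

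Some synaptotagmins under the filter had counts in WT only. SYT13 was counted 6, 8 and 5 times in WT and 0, 0 and 0 times in PARP3-/-, at least 1.94-fold lower against the floor of 3 counts per library, and DESeq2, which tested it, gave an adjusted p of 0.0188. SYT7, a calcium sensor of slower release, had 6, 1 and 5 counts in WT and 0 in all PARP3-/- libraries. SYT6 was counted 4, 6 and 9 times in WT and 8, 1 and 5 times in PARP3-/-, with overlap. SYT3 had at most 3 counts in any library, as 2, 3 and 1 in WT and 0, 1 and 0 in PARP3-/-, and SYT2, SYT9 and SYT17 had at most 2.

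Among the 31 members under the filter, several of them at or below the floor, the groups did not overlap in 6, and no test was made of their number. In these 6, DLGAP3, GABRA2, NLGN3, SYT13, SYT3 and SYT7, every PARP3-/- library was below every WT library, against 5.77% of the 16697 genes under the filter, and in 0 of the 31 every PARP3-/- library was above, against 2.9%. No read was found in any PARP3-/- library for 9 of the 31, against 21.6% of all genes under the filter, and in any WT library for 0 of them, against 14.0%. Apart from SYT13 with DESeq2, none of the 31 was called in the 4 fits.

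Among the neuroligins, none passed without the block, and NLGN1 and NLGN4X were called in opposite directions with it. NLGN1, which codes for the neuroligin of excitatory synapses, was at 37.2, 29.8 and 35.2 CPM in WT and at 30.3, 20.7 and 23.4 CPM in PARP3-/- (chromosome 3, 173396284 to 174286644, plus strand). PARP3-/- replicate 1 was above WT replicate 2, the only overlap between the groups. The log2 fold change was −0.46 (SE 0.16, adjusted p = 0.198 by edgeR), and −0.47 with the block (SE 0.07, adjusted p = 0.000591 by edgeR) and −0.56 without both replicate 1 libraries (adjusted p = 0.00277 by edgeR).

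NLGN4X, an X-linked neuroligin gene, was at 25.8, 29.9 and 30.3 CPM in WT and at 34.7, 35.1 and 35.5 CPM in PARP3-/- (chromosome X, 5840637 to 6228863, minus strand). All PARP3-/- libraries were above all WT libraries, by a small margin. Its log2 fold change of 0.29 (SE 0.09, adjusted p = 0.132 by edgeR) passed with the block (adjusted p = 0.00569 by edgeR) and without both replicate 1 libraries (0.23, adjusted p = 0.03 by edgeR). NLGN2, the neuroligin gene of inhibitory synapses, was at 13.0 ± 0.715 CPM in WT and 12.8 ± 0.477 CPM in PARP3-/- (SD, n = 3, adjusted p = 0.950 by edgeR). NLGN3 was counted 19, 18 and 10 times in WT and 5, 3 and 5 times in PARP3-/-, without overlap but under the filter (adjusted p = 0.119 by DESeq2, 0.0502 by edgeR without both replicate 1 libraries).

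NRXN3, which codes for a presynaptic neurexin, was at 10.9, 15.5 and 15.3 CPM in WT and 7.87, 11.2 and 13.1 CPM in PARP3-/- (chromosome 14, 78170373 to 79868290, plus strand). Replicate 1 was the lowest of both groups, and each PARP3-/- library was below the WT library of its number. The log2 fold change of −0.37 (SE 0.22, adjusted p = 0.495 by edgeR) passed with the block, at −0.38 (SE 0.08, adjusted p = 0.00649 by edgeR), and without both replicate 1 libraries (−0.34, adjusted p = 0.0355 by edgeR). NRXN2 had at most 3 counts in any library.

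Of the DLGAP genes, DLGAP5 was at 108, 194 and 190 CPM in WT and at 137, 175 and 172 CPM in PARP3-/-, with replicate 1 the lowest in both genotypes (log2 fold change −0.02, SE 0.23, adjusted p = 0.984 by edgeR). DLGAP4, a member of the postsynaptic scaffold family, was at 21.4, 22.8 and 21.6 CPM in WT and at 19.4, 20.4 and 19.6 CPM in PARP3-/-. Its groups did not overlap, but the difference was small (log2 fold change −0.15, SE 0.07, adjusted p = 0.408 by edgeR, 0.109 with the block). DLGAP3 had 3, 1 and 3 counts in WT and none in PARP3-/-, and DLGAP1 had at most 1 in any library.

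The levels of several members moved with the replicate number in both genotypes. Among the 22 tested genes with counts in every library, replicate 1 was above the mean of replicates 2 and 3 in both genotypes for 11, below it in both for 8, and on opposite sides for 3. GABRG1 was 3.45 times that mean in WT and 1.62 times in PARP3-/-, SYT1 was 2.43 and 1.65 times, and GRM8 was 1.64 and 1.96 times, the 3 members beyond 1.5 times in both. On the other side, GABRQ was at 0.379 of the mean in WT and 0.549 in PARP3-/-, GRIN2B at 0.484 and 0.407, and DLGAP5, the spindle gene, at 0.56 and 0.79. What set replicate 1 apart is not given in the sources used here and was not tested.

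**Figure D4:**
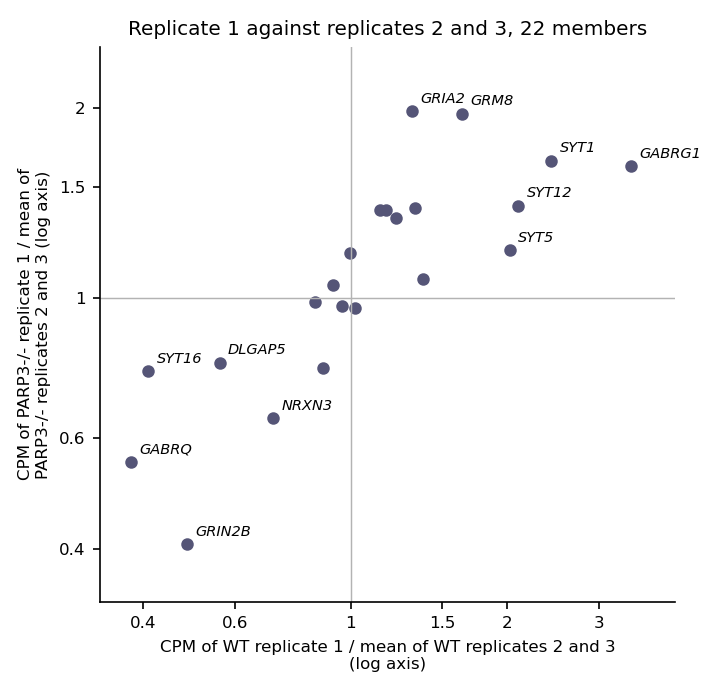
For 22 members, the CPM of replicate 1 divided by the mean of replicates 2 and 3, in WT on the horizontal and in PARP3-/- on the vertical axis, both logarithmic. Most genes lie in the upper right (11) or lower left (8) part, with GABRG1, SYT1 and GRM8 beyond 1.5 in both genotypes and GABRQ and GRIN2B far to the lower left.

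Genes that work with these receptors were taken from 4 lists that hold 108 synaptic partner genes described here, of which 93 were listed and 64 tested. Of the 64, 5 were called lower and 1 higher, with a median log2 fold change of −0.06, against 3.33% and 1.36% of all tested genes called and a median of −0.01. By list, 1 of 19 scaffold and auxiliary genes of the glutamate synapse, 1 of 11 genes of the inhibitory synapse, 3 of 24 genes of vesicle release and 0 of 10 genes of glutamate uptake, packaging and metabolism were lower, and the single higher gene was in the last list. With the block, 14 were lower and 8 higher, against 12.5% and 11.8% of all tested genes.

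HOMER2, which codes for a scaffold that binds metabotropic glutamate receptors, was at 18.0, 19.5 and 20.2 CPM in WT and at 9.09, 7.65 and 7.65 CPM in PARP3-/-. The groups were widely separate (log2 fold change −1.24, SE 0.11, adjusted p = 0.00152 by edgeR). In the inhibitory list, ABAT, the gene of the enzyme that breaks down GABA, fell from 15.4 ± 0.251 to 10.0 ± 0.828 CPM (SD, n = 3, log2 fold change −0.62, SE 0.10, adjusted p = 0.0162 by edgeR). GPHN, the gene of the inhibitory scaffold protein gephyrin, did not pass (adjusted p = 0.468 by edgeR). HOMER2 passed in every fit that left out 1 library. ABAT did not pass without WT replicate 2 (adjusted p = 0.0631 by edgeR), WT replicate 3 (0.0908), PARP3-/- replicate 2 (0.0836) or PARP3-/- replicate 3 (0.0846).

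In the release list, SV2C, the gene of a synaptic vesicle glycoprotein, was counted 68, 162 and 130 times in WT and 0, 0 and 1 times in PARP3-/-. It was at least 36.1-fold lower in PARP3-/- against the floor of 3 counts per library (adjusted p = 0.0011 by edgeR), and it passed whichever library was left out. Like GABRG3, SV2C passed the count filter through its WT libraries. Of the 8 receptor and partner genes called, GABRG3 and SV2C were those with at most 1 count in each PARP3-/- library. The active zone genes BSN (2.02 ± 0.630 to 0.820 ± 0.128 CPM, log2 fold change −1.29, SE 0.27, adjusted p = 0.0474 by edgeR) and ERC1 (54.4 ± 2.13 to 42.1 ± 1.85 CPM, log2 fold change −0.37, SE 0.07, adjusted p = 0.0374 by edgeR) were closer to the threshold. BSN passed in 0 of the 6 fits that left out 1 library (adjusted p = 0.0507 to 0.198 by edgeR), and ERC1 passed only without WT replicate 1 (adjusted p = 0.0339 by edgeR), reaching 0.184 without WT replicate 3. BSN was also lost with a mean count of at least 50 (adjusted p = 0.0585 by edgeR), and ERC1 with no filter on low counts (adjusted p = 0.075 by edgeR).

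SLC1A3, the gene of a glutamate transporter of astrocytes, was at 7.89, 7.03 and 9.14 CPM in WT and at 16.7, 15.4 and 16.5 CPM in PARP3-/-. It rose from 8.02 ± 1.06 to 16.2 ± 0.671 CPM (SD, n = 3, log2 fold change 1.01, SE 0.12, adjusted p = 0.00508 by edgeR), with no overlap, and passed whichever library was left out. SLC1A2, the gene of the other main transporter of astrocytes, had at most 10 counts in any library.

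**Figure D5:**
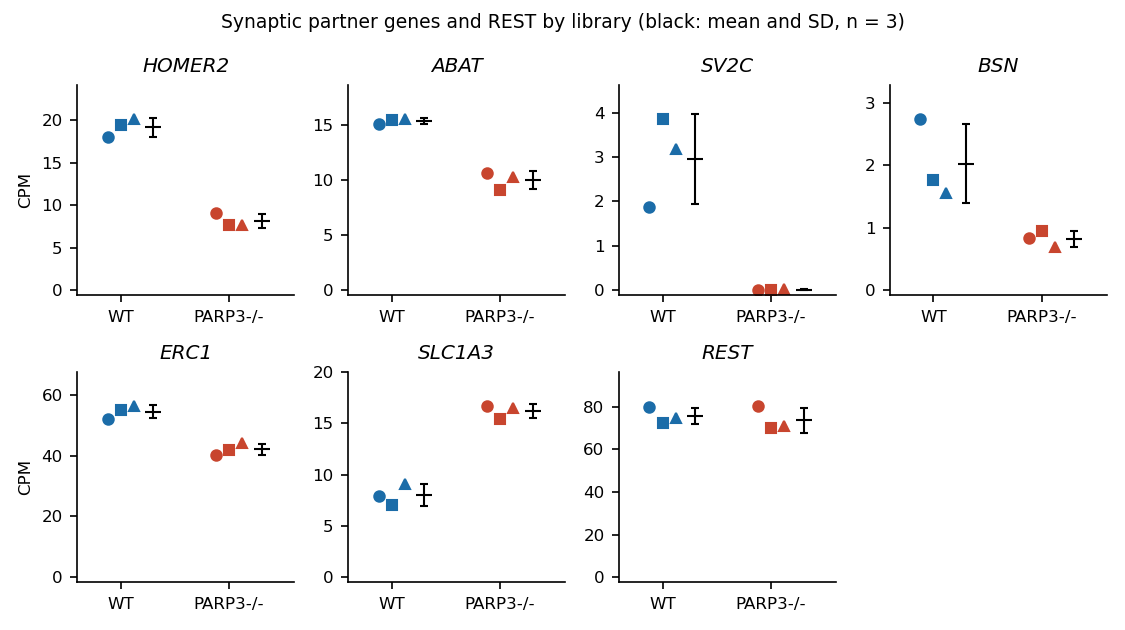
CPM of the 6 synaptic partner genes that passed the test and of REST in each library, 1 panel per gene with an axis from 0, with the mean and SD (n = 3) in black beside the points. WT lies above PARP3-/- without overlap for HOMER2, ABAT, SV2C, BSN and ERC1, the order is the opposite for SLC1A3, and the REST libraries overlap.

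Markers of neurons were at similar summed levels in both genotypes, and several defining ones were near 0. Of 13 neuronal markers 11 were listed and 5 tested, and 0 of the 5 were called in the edgeR fits with and without the block or without replicate 1, or by DESeq2. Their sum was 57.3 to 86.0 CPM in WT and 56.6 to 91.3 CPM in PARP3-/-. The defining markers RBFOX3, NEFL and STMN2 had at most 1 count in any library, whereas MAP2, TUBB3, SNAP25 and GAD1 were counted in every library. Markers of astrocytes summed to 177 to 258 CPM in WT and 110 to 135 CPM in PARP3-/-, with S100B lower (log2 fold change −1.06, adjusted p = 0.0256 by edgeR), SLC1A3 higher, and GFAP at 17 counts or fewer. Their part in the receptor results was not tested. Markers of the oligodendrocyte lineage summed to 566 to 782 and 477 to 602 CPM, and those of microglia and endothelium to less than 1 CPM in every library.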

How the data were processed

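RNA of 3 WT and 3 PARP3-/- LN229 samples was analysed from the deposited raw counts per Ensembl gene, which the authors made with cutadapt 1.10, Bowtie2 2.2.8 (removal of ribosomal and spike-in reads), STAR 2.5.3a on hg38 and HTSeq 0.6.1p1 in union mode. The strand setting of the counting is not given in the sources used here. The labels name polyA RNA, and the protocols describe total RNA. The authors' median transcript length per gene, also deposited, served for levels per length as an alternative to merged exons of GENCODE 44. A further 12 columns of values per sample and the authors' own fold changes and p-values were not used. The deposited table lists genes with at least 1 count.

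Groups and replicate numbers came from the labels. Counts were tested in R 4.3.3 with edgeR 4.0.16 (TMM, filterByExpr with a minimum count of 10, quasi-likelihood test, Benjamini-Hochberg adjustment over 17144 genes, adjusted p under 0.05), with no covariate. The standard errors (SE) of the edgeR fits were derived from the test, as the size of the log2 fold change over the square root of its F statistic. They thus restate the test and are not a separate estimate. Depth was 29692065 to 46010369 counts per library, and 3 counts were taken as the floor, which covers counting error only. The labels and the study call the 3 samples of a genotype biological replicates, and p-values measure the spread between these samples. Deviations of same-numbered libraries from their group means had correlations across genes of 0.676, 0.517 and 0.242 (−0.628 to 0.41 for different numbers). The pairs of WT replicate 2 with PARP3-/- replicate 3 (0.41) and of WT replicate 3 with PARP3-/- replicate 2 (0.264) were also positive. The 3 same-numbered correlations were over 0.1, so the numbers from the labels were taken to pair the samples. A fit with a replicate block stands beside the main one. The correlations separate replicate 1 from the others more clearly than they pair replicates 2 and 3, and the calls with the block rest on this pairing.

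Alternatives were DESeq2 1.42.0, median-of-ratios size factors, no filter, a mean count of at least 50, a stricter rule (a log2 fold change of over 1 in size, and an adjusted p under 0.001), the block and each library left out. Leaving out both replicate 1 libraries, and the block with the stricter rule, were added after seeing the data. The edgeR and DESeq2 fits were tested on simulated counts, with changes planted in genes of higher mean level than GABRG3, GRIA2 and GRIN2B. No replicate effect was simulated, so the simulation does not cover calls for these genes or the replicate effect. The members and the lists of partners, REST corepressors and markers were chosen with earlier results of these data known. Values in every library are given for members called in the edgeR fits with or without the block or by DESeq2 and for the leading member per length of each family, and partner genes called in the main fit, PARP3 and REST are named. GABRG1, GABRQ, SYT1, DLGAP4, neighbours of GABRG3 and the genes with low counts were named after their values were seen. The results for 6 members and 1 partner gene are not reported here, and counts over members and partners leave them out, while fits and adjusted p values cover all tested genes. Promoter sequences and motif windows are 250 bases before RefSeq starts on GRCh38.p14.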

Additional observations from a re-analysis of the deposited data

How the results depend on the processing

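The 2 members called lower and 0 called higher became 6 and 2 with the replicate block, and 6 and 3 without both replicate 1 libraries. DESeq2 called 4 lower, as did the fit with no filter on low counts. With a mean count of at least 50, 0 members were called lower, since GABRG3 and GRIA2 were not tested there. Under the stricter rule 0 were lower and 0 higher by edgeR, and with the block added 3 were lower and 0 higher. Leaving out 1 library at a time gave 1 to 2 lower and 0 higher. For the partner genes, 5 lower and 1 higher became 14 and 8 with the block, 11 and 7 without both replicate 1 libraries, 8 lower with DESeq2, 9 lower with no filter, and 0 and 0 under the stricter rule, while leaving out 1 library gave 2 to 7 lower and 1 higher. Of all tested genes, 10.1% were called lower and 8.91% higher without both replicate 1 libraries. By DESeq2, 3.84% of all genes with an adjusted p were lower and 2.09% higher. The numbers of partner genes tested in these fits are not given, so their counts are not read as a result about the partner genes. For no filter, a mean count of at least 50, the stricter rule and single left-out libraries, shares over all tested genes are not given. Counts under these settings are therefore not read as results about the members or partner genes. Where no cause is given, the cause was not tested.

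PARP3 had a log2 fold change of −0.39 with the replicate block, which passed (adjusted p = 0.0469 by edgeR), −0.54 to −0.20 with 1 library left out, and −0.15 without both replicate 1 libraries, which did not pass (adjusted p = 0.278 by edgeR). The sign turned for DLGAP5 with the block (0.02) and in single left-out fits (0.11 without WT replicate 2, 0.10 without WT replicate 3, 0.08 without PARP3-/- replicate 1, over a range of −0.25 to 0.11), and for GRIN2A without WT replicate 3 (0.10, over a range of −0.38 to 0.10). Neither gene was called in any of these fits. With the paired fit, 6 of 20 named genes gained a call and none lost one. Size factors by the median of ratios changed no call of the 20. Depth is a limit for the low members, as 31 of 54 were not tested in the main edgeR fit. Differences at such counts, in either direction, may have gone undetected, although DESeq2 called SYT13.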
